A study of Mus musculus with 6 samples.

Results

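The 40 genes described here encode the cyclins, kinases, replication proteins and mitotic proteins that carry a cell from G1 through division, together with a pair of inhibitors of cyclin-dependent kinases. They were taken by gene symbol from the deposited table, their transcripts were added up for each gene identifier, and all 40 were listed among the 26199 gene identifiers of the table. The measurement was RNA-seq of whole mouse hearts, which the labels place at embryonic day 12, with 3 libraries of Mrps5 fl/fl hearts (ctrl) and 3 of Mrps5 fl/fl; cTNT-Cre hearts (cKO). Mrps5 encodes a protein of the small mitochondrial ribosomal subunit, and the labels give both groups as floxed on both alleles, while a legend of the study writes the mutant with a wild-type allele (fl/+), so the cKO genotype follows the labels here. The controls had no Cre, and the cKO hearts expressed Cre from a cardiac troponin T promoter, so the gene was targeted in cardiomyocytes and not in the endothelial, epicardial, mesenchymal or blood cells that a whole heart also holds. Each library was a pool of several hearts, and the labels name no background strain for these embryos. Values are FPKM, fragments counted on a transcript per unit of its length and of the library.

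In G1, D-type cyclins bind CDK4 and CDK6 and begin to release E2F factors from the retinoblastoma protein, after which E2F induces cyclin E and the genes of DNA replication. Licensing by CDC6 and CDT1 loads the MCM helicase on origins, and cyclin A and cyclin B with CDK1 then bring the cell into mitosis, where Aurora kinases, PLK1 and the spindle checkpoint act. Cardiomyocytes of the embryonic heart divide, and their withdrawal from the cell cycle after birth is a well known feature of this tissue.

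Promoter sequences, which the choice of genes did not use, differed between the roles of the members. RefSeq windows of 300 bases (250 before and 50 after the transcript start, mouse build GRCm38.p6) were matched by symbol for 32 of the 40 members, which gave 35 windows. Aurkb, Ccnd2, Ccnd1, Smc4, Tpx2, Ccna2, Mcm4 and Ccne2 had no entry. The windows were searched on both strands, counting overlapping matches, for the CCAAT box, for TTTGAA (the cell cycle genes homology region, CHR, an element known from genes of G2 and mitosis), and for 4 words of the E2F site, which were TTCCCGC as the first of these words, followed by TTGGCGC as the second word searched, by TTCGCGC as the third word searched, and by TTGCCGC as the last word searched. CCAAT stood in 12 of 13 windows of mitotic members (92.3%) and in 9 of 12 windows of replication members (75%), against 37.4% of all 32851 windows. TTTGAA stood in 10 of the 13 mitotic windows (76.9%), in 1 of the 12 replication windows and in 0 of 7 windows of G1 members, against 17.9% of all windows. Both elements together were in 10 of 13 mitotic windows and in 6.95% of all windows. An E2F word was found in 9 of 12 replication windows (75%), in 3 of 13 mitotic windows and in 1 of 7 G1 windows, against 9.57% of all windows. These matches describe letters in a window and do not show binding.

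The 230 bases before the start of 4 mitotic genes are shown for their CCAAT and TTTGAA matches, 5′ to 3′ on the strand of the gene, with matches to any of the searched words in capitals on either strand (ATTGG and TTCAAA are the reverse strand readings). Ccnb2 encodes cyclin B2, Cdk1 the mitotic kinase it activates, Mki67 the Ki-67 protein that coats mitotic chromosomes, and Top2a the topoisomerase that untangles sister chromatids.
Ccnb2, chr9:70421555-70421784, minus strand: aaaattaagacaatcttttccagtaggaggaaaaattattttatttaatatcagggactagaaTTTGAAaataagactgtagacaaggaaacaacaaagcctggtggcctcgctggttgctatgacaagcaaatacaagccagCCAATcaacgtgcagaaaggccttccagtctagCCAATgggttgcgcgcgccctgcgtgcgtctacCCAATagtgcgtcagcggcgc
Cdk1, chr10:69352913-69353142, minus strand: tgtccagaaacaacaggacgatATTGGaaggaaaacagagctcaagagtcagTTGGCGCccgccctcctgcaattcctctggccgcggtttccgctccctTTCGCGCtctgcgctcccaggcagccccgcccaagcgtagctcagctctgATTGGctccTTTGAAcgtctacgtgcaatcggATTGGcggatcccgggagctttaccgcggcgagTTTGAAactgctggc
Mki67, chr7:135716380-135716609, minus strand: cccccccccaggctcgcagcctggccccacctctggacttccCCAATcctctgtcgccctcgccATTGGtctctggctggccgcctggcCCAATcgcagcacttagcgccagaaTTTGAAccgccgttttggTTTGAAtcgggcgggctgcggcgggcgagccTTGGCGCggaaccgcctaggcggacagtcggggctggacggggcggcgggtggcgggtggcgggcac
Top2a, chr11:99024190-99024419, minus strand: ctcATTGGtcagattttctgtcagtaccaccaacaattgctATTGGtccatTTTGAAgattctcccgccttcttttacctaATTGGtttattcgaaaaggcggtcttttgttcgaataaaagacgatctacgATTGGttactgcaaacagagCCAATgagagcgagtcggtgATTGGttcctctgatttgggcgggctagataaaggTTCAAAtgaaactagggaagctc

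In Ccnb2 the CCAAT matches began 87, 54 and 21 bases before the start. The Top2a stretch held 6 CCAAT matches and 2 TTTGAA matches, and the Cdk1 stretch held 3 and 2 of them beside 2 E2F words. The next stretches are shown for the E2F words of Mcm5, Mcm6 and Cdk2, and Mcm2 is added as the member that was higher at an unadjusted p under 0.05, with capitals as before and overlapping matches run together. Mcm2, Mcm5 and Mcm6 encode subunits of the replicative helicase, and Cdk2 encodes the kinase of cyclins E and A.
Mcm2, chr6:88898781-88899010, minus strand: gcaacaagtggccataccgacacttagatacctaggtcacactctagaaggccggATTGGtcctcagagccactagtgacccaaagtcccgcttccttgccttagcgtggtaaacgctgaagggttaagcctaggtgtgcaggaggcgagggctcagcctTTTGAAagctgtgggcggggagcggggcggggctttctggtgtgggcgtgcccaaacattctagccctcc
Mcm5, chr8:75109279-75109508, plus strand: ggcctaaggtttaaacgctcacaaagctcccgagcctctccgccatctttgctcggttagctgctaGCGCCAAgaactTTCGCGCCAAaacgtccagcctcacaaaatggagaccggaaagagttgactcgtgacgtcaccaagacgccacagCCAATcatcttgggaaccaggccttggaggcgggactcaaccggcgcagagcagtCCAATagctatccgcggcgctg
Mcm6, chr1:128359706-128359935, minus strand: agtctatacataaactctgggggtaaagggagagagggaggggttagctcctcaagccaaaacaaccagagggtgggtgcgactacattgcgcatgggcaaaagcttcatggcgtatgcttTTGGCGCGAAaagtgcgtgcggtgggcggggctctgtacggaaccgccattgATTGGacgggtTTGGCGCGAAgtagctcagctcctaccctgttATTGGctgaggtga
Cdk2, chr10:128705052-128705281, minus strand: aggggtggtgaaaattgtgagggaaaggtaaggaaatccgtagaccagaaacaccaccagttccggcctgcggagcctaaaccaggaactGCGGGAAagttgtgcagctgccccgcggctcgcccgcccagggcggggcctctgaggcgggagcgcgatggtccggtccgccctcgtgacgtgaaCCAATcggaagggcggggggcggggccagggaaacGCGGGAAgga

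Mcm5 and Mcm6 held 3 and 4 E2F words in these stretches, and Cdk2, a G1 member, held 2. Mcm2 held 0 E2F words, and it was the replication member with a TTTGAA match.

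**Figure D1:**
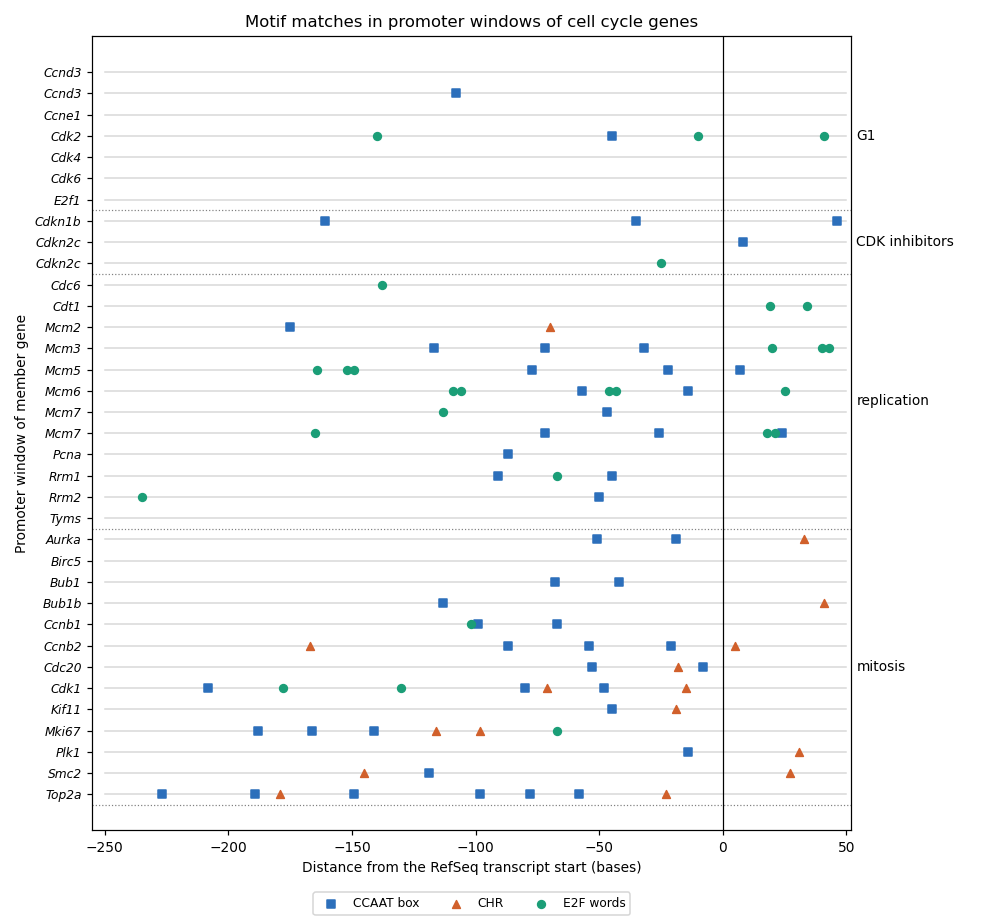
Positions of CCAAT (squares), TTTGAA (CHR, triangles) and E2F words (circles) in the 35 promoter windows of 32 members, by distance in bases from the RefSeq transcript start, with 1 line per window grouped by role. Triangles lie in 10 of 13 mitotic windows and in 1 of 12 replication windows, and circles lie in 9 of 12 replication windows.

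The libraries were checked first against the deleted gene. Mrps5 was 9.65, 11.4 and 10.4 FPKM in ctrl replicates 1 to 3, 5.28 and 7.41 FPKM in cKO replicates 1 and 2, and 10.4 FPKM in the library labelled cKO replicate 3, which lay within the controls. The sum over transcripts cannot tell deleted from intact Mrps5 mRNA. Markers of cardiomyocytes (15 of 15 listed, with 0 at an FPKM of 0 in any library) made up 2.79 to 3.33% of summed FPKM in controls and 2.04 to 2.53% in cKO hearts. Erythroid markers, mainly globins (18 of 21 listed, with 0 at an FPKM of 0 in any library), made up 12.0 to 13.3% in controls, 23.5% in cKO replicate 1, 10.8% in cKO replicate 2 and 22.0% in the library labelled cKO replicate 3. Transcripts of mitochondrial DNA made up 14.3 to 15.8% in controls and 10.7, 14.0 and 9.0% in the cKO libraries in the same order. In whole hearts, fewer cells of a type and less of an mRNA per cell cannot be told apart.

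All 40 members were expressed, at mean levels from 6.67 FPKM (Cdkn2c) to 181 FPKM (Mki67), and all 40 passed the filter of 1 FPKM in at least 3 of 6 libraries, which left 13262 genes in the comparison. Differences are given as cKO minus ctrl on the log2(FPKM + 1) scale, tested with limma (two-sided) over all of these genes. In this comparison 0 of 40 members passed an adjusted p of 0.05 (Benjamini-Hochberg over all genes tested), and the smallest adjusted p among them was 0.331. Of all genes, 0.0829% passed. At an unadjusted p under 0.05, 1 member was higher in cKO hearts (Mcm2) and 0 were lower, beside 5.58% of all genes higher and 9.43% lower. The median difference was 0.08 over the members and -0.02 over all genes tested, and 30 members had a difference above 0 and 10 below 0. Of all 13262 genes tested, 5969 had a difference above 0 and 7293 below. The wider lists of cell cycle genes described further on had 58 above 0 and 55 below.

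The groups did not overlap for 2 members, Mcm2 and Aurkb, which were higher in all 3 cKO libraries than in any control, and for 0 members in the other direction. Over all genes, 7.74% stood apart as higher and 13.0% as lower. The intervals limit how large a difference the members could have on this scale. The 95% interval lay within 0.5 of 0, so within 0.5 log2 units in either direction, for 34 of 40 members, and for 69.0% of all genes. The 6 members whose intervals reached past 0.5 in either direction were Ccnd2, Ccnd3, Cdkn1b, Cdkn2c, Mcm2 and Mki67.

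**Figure D2:**
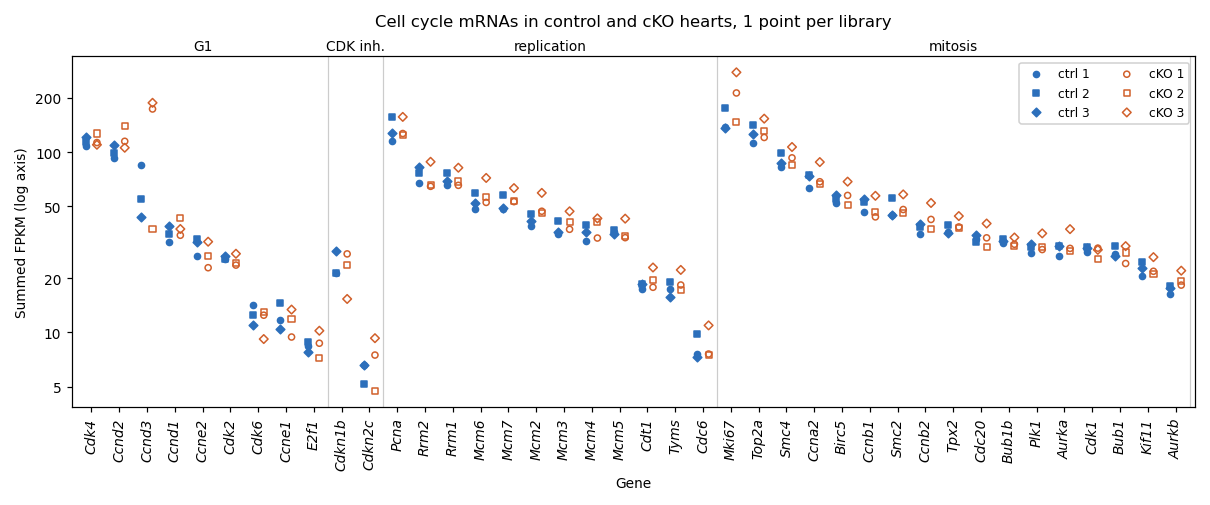
Summed FPKM (log axis) of each of the 40 members in each library, with ctrl libraries as filled blue symbols and cKO libraries as open orange symbols, ordered by role and mean level. Ccnd3 shows the widest spread among cKO libraries, and the diamond of the library labelled cKO replicate 3 is the highest point for 31 of 40 genes.

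**Figure D3:**
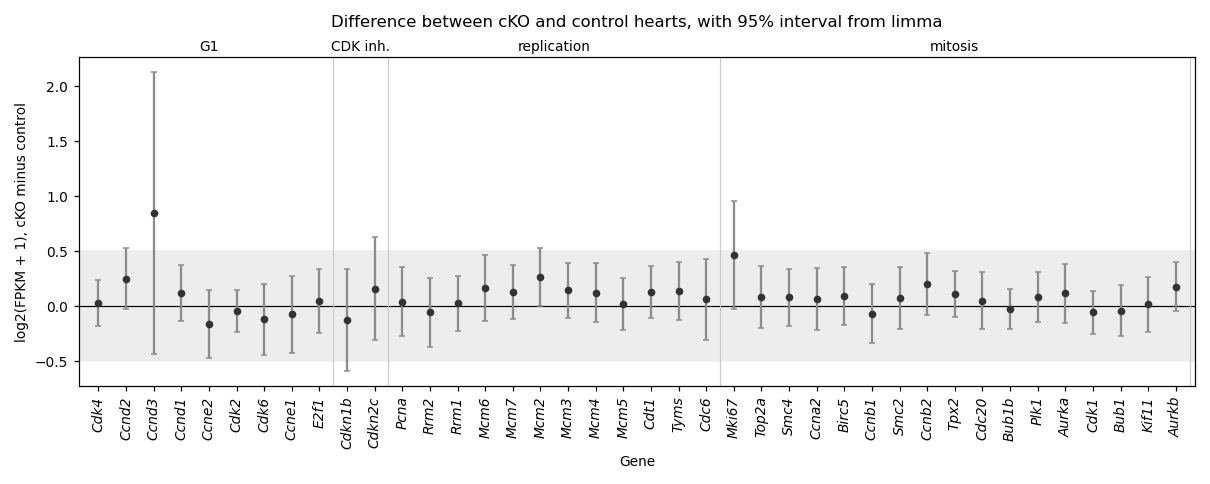
Difference between cKO and ctrl in log2(FPKM + 1) for each member, with the 95% interval from limma (3 libraries per group) and a grey band from -0.5 to 0.5. The interval lies inside the band for 34 of 40 members, and Ccnd3 has the widest.

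Among the G1 members the D-type cyclins had the largest differences above 0, and none of the 9 passed the test. Ccnd2 (ENSMUSG00000000184), cyclin D2, was 93.2, 98.6 and 109 FPKM in ctrl replicates 1 to 3 and 115, 140 and 106 FPKM in cKO replicates 1 to 3. The highest control exceeded the lowest cKO library, so the groups overlapped. The difference was 0.25 (SE 0.120, adjusted p = 0.373). Without the library labelled cKO replicate 3 it was 0.34 (adjusted p = 0.244), and with the erythroid share as a covariate 0.41 (adjusted p = 0.344). Over all alternatives its adjusted p ranged from 0.244 to 0.721. Ccnd1 (ENSMUSG00000070348), cyclin D1, was 31.8, 35.0 and 38.8 FPKM in controls and 34.6, 43.2 and 37.5 FPKM in cKO hearts, with a difference of 0.12 (SE 0.110, adjusted p = 0.650).

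Ccnd3 (ENSMUSG00000034165), cyclin D3, had the largest difference and the largest spread of the 40 members. It was 85.1, 55.1 and 43.8 FPKM in ctrl replicates 1 to 3 and 173, 37.5 and 187 FPKM in cKO replicates 1 to 3. Both the highest and the lowest of the 6 libraries were cKO libraries. The means were 61.3 ± 21.3 (SD, n = 3) and 133 ± 82.7 (SD, n = 3), the difference was 0.85 (SE 0.558, 95% interval -0.43 to 2.13) and the adjusted p from limma was 0.515. The cKO libraries of high Ccnd3 were those of high erythroid share, 23.5% and 22.0%, and the one of low Ccnd3 had 10.8%. With the log2 erythroid share as a covariate the difference was -0.18 (adjusted p = 0.852). That log2 share was 3.62, 3.74 and 3.59 in ctrl replicates 1 to 3 and 4.56, 3.44 and 4.46 in cKO replicates 1 to 3. Controls barely differed in it, so for every gene the covariate fit rests mainly on the contrast among cKO libraries. The part of blood content in the Ccnd3 spread was not tested. With both high libraries left out, an alternative added once values were known that keeps only cKO replicate 2, already below all controls, the difference was -0.64. Leaving out cKO replicate 2 instead gave 1.59 with an adjusted p of 0.0432, the only call of a member at an adjusted p of 0.05 in any alternative, where its adjusted p otherwise ranged from 0.392 to 0.852.

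FPKM are per length, so the D-type cyclins can be set side by side as shares of their summed FPKM. Ccnd3 made up 40.5, 29.2 and 22.8% of the 3 mRNAs in ctrl replicates 1 to 3 and 53.7, 17.0 and 56.7% in cKO replicates 1 to 3. Ccnd2 made up 44.4 to 56.9% in controls and 35.6, 63.4 and 32.0% in cKO hearts, and Ccnd1 15.1 to 20.2% in controls and 10.7, 19.6 and 11.3% in cKO hearts. The leading D-type cyclin mRNA was therefore Ccnd2 in all 3 controls and in cKO replicate 2, and Ccnd3 in the other cKO libraries. The sum of Ccnd1 and Ccnd2, leaving Ccnd3 aside, was 125, 134 and 148 FPKM in controls and 149, 183 and 143 FPKM in cKO hearts.

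The spread of Ccnd3 lay mainly in transcripts of its upstream start. The gene has RefSeq starts 88416 bases apart on chromosome 17 (GRCm38.p6), and the 16 Ccnd3 transcripts of the table were sorted by the GENCODE start of their identifier. The 230 bases before each RefSeq start are shown because the starts differed in the data, with capitals as before.
Ccnd3 upstream start, chr17:47504821-47505050, plus strand: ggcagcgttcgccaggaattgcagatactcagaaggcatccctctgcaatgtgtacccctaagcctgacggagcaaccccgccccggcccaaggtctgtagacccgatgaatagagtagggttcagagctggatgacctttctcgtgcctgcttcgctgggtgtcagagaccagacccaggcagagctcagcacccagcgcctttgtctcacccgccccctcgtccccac
Ccnd3 downstream start, chr17:47593237-47593466, plus strand: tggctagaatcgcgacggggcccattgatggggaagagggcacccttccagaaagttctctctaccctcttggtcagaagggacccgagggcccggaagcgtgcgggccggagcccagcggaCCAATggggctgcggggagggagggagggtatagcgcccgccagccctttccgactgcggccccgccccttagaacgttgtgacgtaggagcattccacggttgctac

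The 9 transcripts of the upstream start summed to 51.7, 36.1 and 5.03 FPKM in ctrl replicates 1 to 3 and to 111, 6.60 and 154 FPKM in cKO replicates 1 to 3. Their range was wide within each group, and ctrl replicate 3 and cKO replicate 2 were both low. The 2 transcripts of the downstream start summed to 18.0, 8.69 and 25.8 FPKM in controls and to 9.64, 18.9 and 13.2 FPKM in cKO hearts, and the 5 other transcripts to 15.5, 10.4 and 13.0 FPKM and to 53.0, 12.0 and 20.6 FPKM. Most of the upstream signal was 1 transcript, ENSMUST00000183044, listed at 50.8, 35.1 and 0.640 FPKM in controls and at 110, 2.08 and 152 FPKM in cKO hearts. Its value in ctrl replicate 3 was far below the other controls, and the erythroid shares of ctrl replicates 1 to 3 were 12.3, 13.3 and 12.0%. The part of the erythroid share in this spread was not tested. How fragments shared by these overlapping transcripts were divided is not given in the sources used here, so the split between starts is less certain than the sum.

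**Figure D4:**
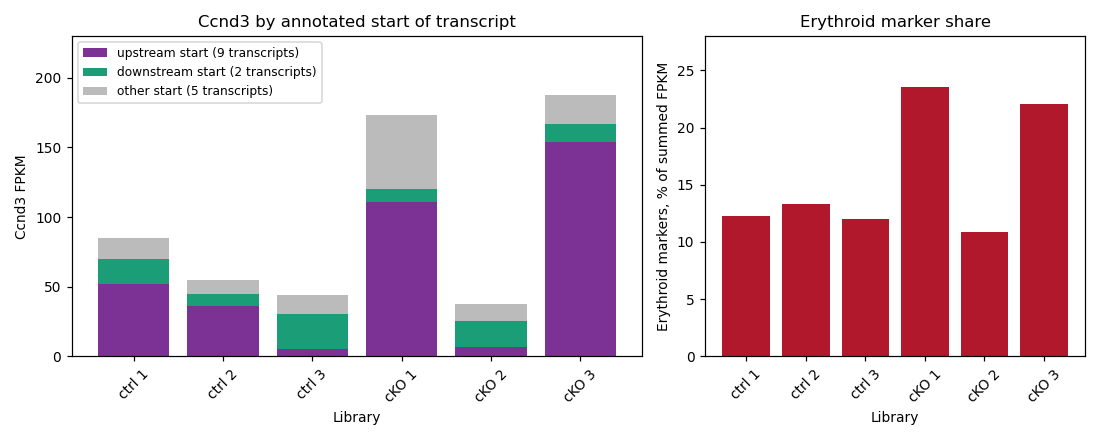
Left, Ccnd3 FPKM in each library as stacked bars for transcripts of the upstream start, the downstream start and other starts; right, erythroid markers as a percent of summed FPKM in the same libraries. The upstream start gives 111 and 154 FPKM in the cKO libraries with erythroid shares of 23.5% and 22.0%, and 6.60 FPKM in the one with 10.8%.

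The other G1 members differed less. Cdk4 (ENSMUSG00000006728), a kinase of D-type cyclins and the most abundant G1 member, was 108, 113 and 121 FPKM in controls and 113, 127 and 110 FPKM in cKO hearts, a difference of 0.03 (SE 0.0917, 95% interval -0.18 to 0.24). Ccne2 (ENSMUSG00000028212), cyclin E2, was 26.4, 33.0 and 31.8 FPKM in controls and 22.8, 26.6 and 31.8 FPKM in cKO hearts. At -0.17 (SE 0.135, adjusted p = 0.606) this was the lowest difference of the 40 members, and the groups overlapped, but with the most abundant transcript in place of the sum it was 0.25. Cdk6 (the partner kinase of CDK4), Ccne1 (cyclin E1) and Cdk2 had differences of -0.12, -0.08 and -0.04, with adjusted p from 0.736 to 0.851, and E2f1 one of 0.05 (adjusted p = 0.891).

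E2f1 (ENSMUSG00000027490), the E2F factor of the G1 to S transition, differed little in its sum and more in the division between its transcripts, and its transcripts were singled out after their values were seen. The sum was 8.38, 8.82 and 7.78 FPKM in controls and 8.72, 7.18 and 10.2 FPKM in cKO hearts. The transcript ENSMUST00000103145 made up 47.4, 37.7 and 42.4% of it in controls and 68.2, 65.8 and 59.2% in cKO hearts. All cKO libraries were above all controls in this share, and in FPKM, at 3.98, 3.33 and 3.30 against 5.94, 4.73 and 6.05. The other transcript, ENSMUST00000000894, was 4.41, 5.49 and 4.48 FPKM in controls and 2.77, 2.46 and 4.17 FPKM in cKO hearts. It was the larger transcript in every control and the smaller in every cKO library. The most abundant transcript was picked by its mean over all 6 libraries, cKO included. With that transcript in place of the sum, E2f1 differed by 0.53 (SE 0.126, adjusted p = 0.291), a value that depends on this choice. Of 21 members with a second transcript of at least 1 FPKM on average, the share of the main transcript did not overlap between groups for 2, E2f1 and Mcm6, beside 12.8% of 4513 genes of that kind. The members were thus not above the rate of all such genes. For Mcm6 the main transcript made up 63.5, 66.8 and 62.6% in controls and 67.8, 67.2 and 71.8% in cKO hearts, a far smaller gap. How fragments shared by the E2f1 transcripts were divided is not given in the sources used here. The split between them is therefore less certain than the sum.

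The CDK inhibitors had differences on both sides of 0 and varied between cKO libraries. Cdkn1b (ENSMUSG00000003031), which encodes p27, was 21.2, 21.4 and 28.4 FPKM in controls and 27.3, 23.5 and 15.3 FPKM in cKO hearts. The library labelled cKO replicate 3 was the lowest of the 6, and the difference was -0.13 (SE 0.202, adjusted p = 0.814). Cdkn2c (ENSMUSG00000028551), which encodes p18, was 6.62, 5.21 and 6.63 FPKM in controls and 7.49, 4.75 and 9.29 FPKM in cKO hearts. Its highest and lowest libraries were both cKO libraries, and the difference was 0.16 (SE 0.203, adjusted p = 0.760).

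The 12 replication members had a median difference of 0.13, and 11 had a difference above 0. That median was 0.03 without the library labelled cKO replicate 3 and 0.054 with the erythroid share as a covariate. Mcm2 (ENSMUSG00000002870), a helicase subunit, was 38.8, 45.4 and 41.5 FPKM in ctrl replicates 1 to 3 and 47.0, 46.2 and 59.4 FPKM in cKO replicates 1 to 3. Every cKO library was above every control, though cKO replicate 2 exceeded ctrl replicate 2 by less than the controls differed among themselves. The means were 41.9 ± 3.28 and 50.8 ± 7.40 (SD, n = 3 each), a ratio of 1.21, and the difference was 0.27 (SE 0.115, adjusted p = 0.331). Its unadjusted p, the one behind its count as higher, was 0.0490 and lay just under 0.05. Without the library labelled cKO replicate 3 the unadjusted p was 0.164 and the difference 0.15, and that p was 0.149 without ctrl replicate 1 and 0.101 without ctrl replicate 3. With the erythroid share as a covariate the unadjusted p of Mcm2 was 0.230 and its difference 0.18, and the 1 member then higher at an unadjusted p under 0.05 was Ccnd2 (unadjusted p of 0.00829, adjusted p = 0.344), beside 5.13% of all genes. Over all alternatives its adjusted p ranged from 0.263 to 0.685.

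Mcm3 (ENSMUSG00000041859) was 35.0, 41.4 and 36.1 FPKM in controls and 37.3, 40.7 and 46.9 FPKM in cKO hearts, with a difference of 0.15 (SE 0.109, adjusted p = 0.573). Mcm6 (ENSMUSG00000026355) was 48.6, 59.3 and 52.5 FPKM in controls and 52.6, 56.4 and 71.8 FPKM in cKO hearts, with a difference of 0.16 (SE 0.131, adjusted p = 0.602). In both genes the library labelled cKO replicate 3 was highest and the other cKO libraries fell within the controls. The remaining helicase subunits Mcm4, Mcm5 and Mcm7 had differences of 0.12, 0.02 and 0.13, so the 6 subunits lay between 0.02 and 0.27.

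Pcna (ENSMUSG00000027342), the sliding clamp and the most abundant replication member, was 115, 155 and 127 FPKM in controls and 127, 125 and 157 FPKM in cKO hearts. The 2 groups covered nearly the same range, with a difference of 0.04 (SE 0.137, 95% interval -0.27 to 0.35). Rrm2 (ENSMUSG00000020649), the S-phase subunit of ribonucleotide reductase, was 67.1, 76.6 and 82.1 FPKM in controls and 64.6, 65.7 and 88.3 FPKM in cKO hearts. This gave the single difference below 0 among the replication members, -0.06 (SE 0.137, adjusted p = 0.880). Cdt1 (ENSMUSG00000006585), a licensing factor, was 17.5, 18.6 and 18.5 FPKM in controls and 17.8, 19.5 and 22.9 FPKM in cKO hearts, with a difference of 0.13 (SE 0.103, adjusted p = 0.596). The other licensing factor Cdc6, the large reductase subunit Rrm1 and thymidylate synthase Tyms had differences of 0.06, 0.03 and 0.14 (adjusted p from 0.621 to 0.935).

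The 17 members of G2 and mitosis had a median difference of 0.08, 13 above 0 and 4 below, and the median was -0.027 with the erythroid share as a covariate and -0.02 without the library labelled cKO replicate 3. Mki67 (ENSMUSG00000031004), the most abundant of all 40, was 138, 175 and 135 FPKM in ctrl replicates 1 to 3 and 213, 147 and 276 FPKM in cKO replicates 1 to 3. As with Ccnd3, the libraries labelled cKO replicates 1 and 3 were above all controls, and cKO replicate 2 was within them, where for Ccnd3 it was below. The ratio of means was 1.42 and the difference 0.47 (SE 0.214, 95% interval -0.02 to 0.96, adjusted p = 0.354). With the erythroid share as a covariate it was 0.13 (adjusted p = 0.812). Ccnb2 and Aurkb were the only other mitotic members above all controls in cKO replicate 1, by smaller margins.

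Aurkb (ENSMUSG00000020897), the Aurora kinase of the chromosomal passenger complex, was 16.3, 18.2 and 17.7 FPKM in controls and 18.3, 19.2 and 22.0 FPKM in cKO hearts. The groups stood apart by a narrow margin, since cKO replicate 1 exceeded ctrl replicate 2 in the first decimal only, and the difference was 0.18 (SE 0.0955, adjusted p = 0.423). Ccnb2 (ENSMUSG00000032218), cyclin B2, was 35.3, 38.5 and 39.7 FPKM in controls and 42.3, 37.6 and 52.2 FPKM in cKO hearts, with a difference of 0.20 (SE 0.122, adjusted p = 0.475). Ccnb1 (ENSMUSG00000041431), cyclin B1, was 46.8, 52.6 and 54.9 FPKM in controls and 43.7, 46.7 and 57.2 FPKM in cKO hearts. Its difference of -0.07 (SE 0.116, adjusted p = 0.822) was the lowest of the mitotic members, and the groups overlapped for both B-type cyclins. Neither direction held throughout, since Ccnb1 was 0.010 without cKO replicate 1 and Ccnb2 was -0.0062 with cKO replicate 2 as the lone cKO library.

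The remaining 13 mitotic members lay between -0.06 (Cdk1) and 0.11 (Aurka, the Aurora kinase of spindle poles), with adjusted p from 0.607 (Tpx2, its spindle activator) to 0.956 (Kif11, a spindle motor). Top2a at 131 FPKM and the condensin subunit Smc4 at 92.0 FPKM were the most abundant of these by mean, and Kif11 at 22.9 FPKM the least. The spindle checkpoint genes Bub1 and Bub1b had differences of -0.04 and -0.03, and Cdc20, the activator of the anaphase-promoting complex that the checkpoint restrains, 0.05. Ccna2 (cyclin A2), Birc5 (survivin), Plk1 (a mitotic kinase), Smc2 (condensin), Smc4 and Top2a lay between 0.06 and 0.09.

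The library labelled cKO replicate 3 was the highest of the 6 for 31 of 40 members, beside 14.1% of all genes tested: 12 of 12 replication members, 15 of 17 mitotic members, 3 of 9 G1 members and 1 of 2 inhibitors. It was also the highest for 63 of the 113 tested genes of the wider lists described below. Among these were 23 of 40 genes of origin firing and the fork and 32 of 52 mitotic regulators. The median deviation of the members from their control mean, on the log2(FPKM + 1) scale, was -0.01, -0.03 and 0.26 in cKO replicates 1 to 3, and -0.09, 0.07 and 0.01 in ctrl replicates 1 to 3. For the replication members alone it was -0.04, 0.03 and 0.30 in the cKO libraries, and for the mitotic members 0.02, -0.06 and 0.27. Over all genes tested the same medians were -0.04, 0.03 and -0.05. Members above their control mean numbered 18 and 15 of 40 in cKO replicates 1 and 2 and 36 of 40 in the library labelled cKO replicate 3, beside 6, 31 and 22 of 40 in ctrl replicates 1 to 3. Among controls, ctrl replicate 2 was the high one for the same roles, with 12 of 12 replication and 15 of 17 mitotic members above the control mean and medians of 0.14 and 0.06.

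Without that library 17 of 40 members had a difference above 0 and 23 below, and the median was 0.03 for the replication and -0.02 for the mitotic members. It is the cKO library in which Mrps5 was at the level of the controls (10.4 FPKM), and its erythroid share was 22.0%. The erythroid share was as high in cKO replicate 1 (23.5%), where the median deviation of the members was -0.01. The part of these features in the pattern was not tested.

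**Figure D5:**
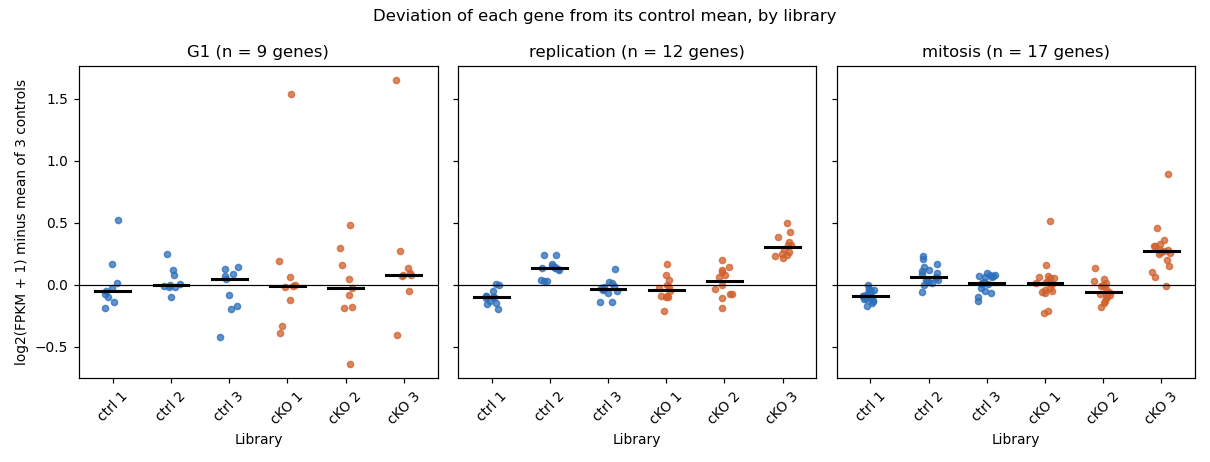
Deviation of each gene from its mean in the 3 controls, on the log2(FPKM + 1) scale, in each of the 6 libraries, for G1 (9 genes), replication (12) and mitotic (17) members, with 1 point per gene and a black line at the median. The medians of replication and mitotic members are 0.30 and 0.27 in the library labelled cKO replicate 3 and lie between -0.10 and 0.14 in all other libraries.

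Other genes of the cell cycle were taken from 3 lists of 115 genes, of which 113 were tested (Cdkn2a and Cdkn2b were below the filter). In these lists 0 genes passed an adjusted p of 0.05, with a smallest value of 0.160, and at an unadjusted p under 0.05 there were 4 higher and 2 lower, beside 5.58% of all genes higher and 9.43% lower. All 4 and 1 of the lower were among the 21 tested genes of G1 control. Myc, a transcription factor that drives entry into the cycle, was 8.56, 12.4 and 8.99 FPKM in controls and 13.8, 17.1 and 15.1 FPKM in cKO hearts, with a difference of 0.58 (SE 0.144, adjusted p = 0.160). All cKO libraries were above all controls, and the difference was 0.59 without the library labelled cKO replicate 3 and 0.67 with the erythroid share as a covariate.

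Cdkn1a, which encodes the inhibitor p21, was 6.32, 7.08 and 7.70 FPKM in controls and 19.5, 18.4 and 7.82 FPKM in cKO hearts. It was high in the cKO libraries where Mrps5 was low, and in the library labelled cKO replicate 3 it was just above the highest control. The difference was 0.92 (SE 0.288, adjusted p = 0.216), and without that library 1.31 (SE 0.109, adjusted p = 0.000988), with adjusted p of Cdkn1a between 0.000988 and 0.370 over the alternatives. Tfdp2, a dimer partner of E2F, was 17.4, 18.1 and 19.5 FPKM in controls and 23.5, 20.6 and 24.7 FPKM in cKO hearts (difference 0.31, adjusted p = 0.212). The fourth, E2f4, a repressor E2F, is named after its value was seen and differed by 0.32 (adjusted p = 0.263).

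On the lower side of the G1 control list, E2f7, an E2F repressor, was 8.75, 9.84 and 9.49 FPKM in controls and 7.15, 7.0 and 8.62 FPKM in cKO hearts (difference -0.27, adjusted p = 0.280). Cdk7 and Cdkn1c followed, with adjusted p of 0.356 and 0.402. Cdkn1c, which encodes p57, was the most abundant CDK inhibitor measured, at 439, 368 and 482 FPKM in controls and 280, 324 and 429 FPKM in cKO hearts, and the groups overlapped (difference -0.33).

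Of 40 genes of origin firing and the fork, 0 passed an unadjusted p of 0.05 in either direction, and their median difference was -0.0031. The smallest p on the higher side were those of Uhrf1, Orc2 and Dbf4 (differences 0.26, 0.18 and 0.16, adjusted p from 0.404 to 0.478), and among the smallest on the lower side were those of Gmnn and Orc4 (-0.23 and -0.19, adjusted p of 0.355 and 0.395). Gmnn encodes geminin, the inhibitor of the licensing factor CDT1, and was 30.2, 29.7 and 29.4 FPKM in controls and 24.5, 22.5 and 29.4 FPKM in cKO hearts. Of 52 mitotic regulators, 1 was lower, Cenpa, the centromeric histone, at 48.5, 40.7 and 42.5 FPKM in controls and 35.4, 33.7 and 41.4 FPKM in cKO hearts (difference -0.25, adjusted p = 0.326), and their median difference was -0.01. Stmn1 and Spc25 came next on the lower side (adjusted p of 0.515 and 0.603), and Cdc25b, Mybl2 and Tacc3 on the higher side (differences 0.39, 0.34 and 0.19, adjusted p from 0.356 to 0.475). Cdc25b and Mybl2 were highest in the library labelled cKO replicate 3, at 29.4 and 16.8 FPKM, so both differences are smaller without it.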

How the data were processed

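Whole hearts of 3 ctrl and 3 cKO pools were measured by RNA-seq after removal of ribosomal RNA, with strand-specific libraries. The authors deposited 1 table of FPKM values for 60776 transcripts. The submitters' processing notes list Bowtie2 2.2.8, HISAT2, StringTie 1.3.1, Cuffdiff 2.1.1 and the build mm9, without saying which made the table. FPKM hold no counts, so library depth is unknown and no counting error is given. P-values measure the spread between these pools.

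FPKM were summed over the transcripts of each gene identifier. Genes that reached 1 FPKM in 3 or more of the 6 libraries were compared on log2(FPKM + 1), which understates differences of genes with low FPKM, with limma 3.58.1 in R 4.3.3 (moderated test with a mean trend, Benjamini-Hochberg over all genes tested). Members, gene lists and alternatives were chosen with earlier results of these data known. Values in every library are given for the deleted gene, the D-type cyclins, members with an unadjusted p under 0.05 or among the 10 smallest, and the most abundant and most changed member of each role, and up to 3 genes per direction are named from each wider list. A gene that this rule names is not reported here. Alternatives were other pseudocounts, filters, scalings and transcript choices, the erythroid share as a covariate, the replicate number as a block, and libraries left out. Promoter windows came from RefSeq (GRCm38.p6), matched by symbol. Transcripts were matched to GENCODE M21 starts by identifier, and no coordinates were converted between builds.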

Additional observations from a re-analysis of the deposited data

How the results depend on the processing

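The number of members higher at an unadjusted p under 0.05, 1 as reported, was 0 with a mean FPKM of at least 5 (6.61% of all genes), 0 with no filter (4.16%) and 0 with FPKM rescaled without erythroid and mitochondrial DNA genes (4.12%), and 2 with median-of-ratios scaling (Mcm2 and Ccnd2, beside 6.88%). Leaving out 1 library at a time it ranged from 0 to 5, members past an adjusted p of 0.05 from 0 to 1, members whose groups did not overlap from 3 to 8, and calls in the wider lists (6 as reported) from 3 to 12. Without cKO replicate 2 there were 5 higher members (6.57% of all genes) and 12 wider genes of 113 (16.6% of all genes). Without the library labelled cKO replicate 3 there were 8 members apart (32.6% of all genes) and 12 wider genes (15.3%), and without ctrl replicate 2 also 8 members apart (31.2%). With 1 library fewer, groups of all genes stood apart more often, from 26.8% to 35.7% in place of 20.8%. Members lower at an unadjusted p under 0.05 numbered 0 under every alternative run. Without cKO replicates 1 and 3, an alternative added after the data were seen in which the lone cKO library is assumed to vary like the controls, the wider lists held 10 calls among 113 genes (12.3% of all genes), the median of the G1 members was -0.031 in place of 0.03, and the Ccnd3 share of D-type cyclins was 13.9 points lower than in controls (-13.9) where it was 11.6 points higher as reported. The G1 median was -0.053 with the erythroid share as a covariate and 0.12 with the most abundant transcript. The mitotic median, 0.08 as reported, was -0.027 with the covariate and -0.057 without cKO replicates 1 and 3, and the replication median, 0.13 as reported, was 0.054 and 0.027. Leaving out 1 library moved the G1 median between -0.02 and 0.05, the replication median between 0.03 and 0.19, the mitotic median between -0.02 and 0.14, and the Ccnd3 share difference between 4.50 and 24.4 points.

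Among the members whose values are given in every library, the differences that changed sign without cKO replicates 1 and 3 were those of Ccnd3 (-0.64), E2f1 (-0.19), Cdkn1b (0.0029), Cdkn2c (-0.31), Pcna (-0.077), Ccnb2 (-0.0062) and Mki67 (-0.011). With the erythroid share as a covariate those that changed sign were Ccnd3 (-0.18), E2f1 (-0.12), Cdkn2c (-0.14) and Pcna (-0.051). Ccne2 was 0.25 with the most abundant transcript, and Cdk4 was -0.0013 after rescaling. E2f1 was -0.063 without the library labelled cKO replicate 3. Leaving out 1 library at a time, Rrm2 ranged from -0.20 to 0.022, Ccnb1 from -0.18 to 0.010, Cdk4 from -0.030 to 0.074, Cdkn1b from -0.29 to 0.10, Cdkn2c from -0.027 to 0.39 and Pcna from -0.066 to 0.16. Of all 40 members, 19 changed sign without cKO replicates 1 and 3, 17 without the library labelled cKO replicate 3 and 13 with the covariate. The cause was not tested.

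The labels give only replicate numbers, and the paper describes the controls as littermates. Deviations from the group means correlated at 0.215, 0.108 and 0.0892 for the 3 numbers. Correlations between unlike numbers were not set beside these values, so whether the numbers pair the libraries is not settled. With the replicate block 1 member was higher and 0 were lower (5.74% and 11% of all genes), 4 genes in place of 11 passed an adjusted p of 0.05, and the wider lists held 9 calls among 113 genes (16.7%). Among all genes, 261 passed without the library labelled cKO replicate 3 and 123 without cKO replicate 2. FPKM carry no depth, so the precision of low members such as Cdkn2c and Cdc6 cannot be judged from counts.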
